A study of Arabidopsis thaliana with 36 samples.

Results

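The genes described are 10 parts of the brassinosteroid pathway of Arabidopsis thaliana, a steroid hormone pathway that controls cell elongation. They were chosen by name and matched in the count table by gene identifier: the receptor BRI1, its inhibitor BKI1, the transcription factors BES1, BZR1 and BIM1, and the basic helix-loop-helix (bHLH) factors BEE1, BEE2, BEE3, CES and HBI1. They are 10 of the 32833 genes in the table, and 9 of them, all but CES, passed the filter on low counts that left 21562 genes for testing. Whole 7-day-old seedlings of 4 genotypes were compared: hy5 pif457, pif457, hy5 and wild type (WT, Col-0). The labels name the mutants by gene and give no alleles. HY5 is a bZIP factor that promotes light-grown development, and the pif457 mutant is named for PIF4, PIF5 and PIF7, bHLH factors that act when phytochrome is inactivated by shade. All seedlings grew in continuous white light at 22 °C with a red to far-red ratio (R:FR) of about 1.58. They were harvested just before, or 1 or 8 h after, far-red light was added to give simulated shade with an R:FR of about 0.02. Each of the 12 genotype-by-time groups has 3 biological replicates, each a pool of whole seedlings, and p-values measure the spread between these pools. That spread is estimated jointly over all 12 groups. No group stayed in white light for 1 or 8 h, so the effect of shade and that of elapsed time cannot be told apart.

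Brassinosteroid binds the receptor kinase BRI1 at the cell surface, which releases the membrane-bound inhibitor BKI1 and, through cytoplasmic kinases and phosphatases, lets BES1 and BZR1 act in the nucleus. BES1 binds DNA together with bHLH partners such as BIM1, and BES1 and BZR1 repress brassinosteroid synthesis genes while promoting growth genes, many of them jointly with PIF factors. BEE1, BEE2 and BEE3 were named as early brassinosteroid-responsive bHLH factors, CES is a related bHLH factor, and HBI1 is a growth-promoting bHLH factor whose activity is set by small non-DNA-binding HLH proteins. In seedlings this network is known for its part in hypocotyl elongation in shade, warmth and darkness.

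Library totals ran from 30846115 to 58025421 counts. HY5 was at 27.9%, 35.2% and 23.3% of the WT mean in hy5 at 0, 1 and 8 h, and PIF5 was at 5.21%, 5.18% and 3.81% of it in pif457. PIF7 was at 9.6% to 17.3% of WT in pif457. PIF4 in pif457 had 80.9%, 61.6% and 50.3% of the WT level at these times, and only the last difference passed the test (adjusted p = 0.00193, edgeR). In hy5 pif457 its share of the WT level was 115%, 157% and 66.5%, called higher at 1 h and lower at 8 h. Ribosomal RNA took 6.01% to 11.6% of counts in 12 libraries (pif457 at 8 h and all hy5 pif457) and 0.467% to 2.63% in the other 24. In comparisons of those 12 libraries with any of the 24, this share and the group cannot be told apart. The summed level of 23 root markers ranged from 741 to 3680 CPM (TMM-scaled) over the 36 libraries, and was 741 to 1780 CPM in WT at 8 h, against 964 to 2440 CPM in WT at 0 h. Most of this sum was PYK10, with group means of 1150 to 2660 CPM, and no other root marker had a group mean over 152 CPM. None of the 23 had a group mean of 0. Fewer cells of a type and less RNA per cell cannot be told apart in whole seedlings. Among single libraries, hy5 0 h replicate 3 stood apart for BEE1, hy5 1 h replicate 3 for BIM1, and pif457 8 h replicate 3 for HBI1 and BEE2. The mean correlation of that pif457 library with its group was 0.9502, the lowest of the 36, but replicate 1 of the same group was close at 0.9512.

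The upstream sequences of the 5 genes that rose at 1 h in WT are shown because they hold, or lack, the short motifs that PIF and BZR1 factors are known to bind. Each is the 300 bases before the annotated gene start, read from the TAIR10.1 genome and annotation of RefSeq and written 5′ to 3′ on the strand of the gene. Capitals mark a G-box (CACGTG), a PIF-binding E-box (CACATG or its reverse complement CATGTG) or a BZR1-binding element (CGTGTG or CGTGCG, or their reverse complements CACACG and CGCACG), searched on both strands. No 2 marked motifs overlap in these windows.
BEE1, chr1:6331098-6331397, plus strand: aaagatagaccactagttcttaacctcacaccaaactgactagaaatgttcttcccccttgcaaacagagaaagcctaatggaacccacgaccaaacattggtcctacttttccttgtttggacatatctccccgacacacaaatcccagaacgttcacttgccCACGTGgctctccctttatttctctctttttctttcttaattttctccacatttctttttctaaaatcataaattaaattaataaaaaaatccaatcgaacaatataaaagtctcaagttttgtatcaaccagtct
BEE2, chr4:17243283-17243582, plus strand: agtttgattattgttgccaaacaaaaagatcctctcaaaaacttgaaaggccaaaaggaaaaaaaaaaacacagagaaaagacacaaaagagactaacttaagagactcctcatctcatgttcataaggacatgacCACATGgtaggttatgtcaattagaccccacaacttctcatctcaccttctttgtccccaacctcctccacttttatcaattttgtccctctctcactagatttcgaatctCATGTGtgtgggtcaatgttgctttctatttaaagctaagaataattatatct
BIM1, chr5:2610251-2610550, minus strand: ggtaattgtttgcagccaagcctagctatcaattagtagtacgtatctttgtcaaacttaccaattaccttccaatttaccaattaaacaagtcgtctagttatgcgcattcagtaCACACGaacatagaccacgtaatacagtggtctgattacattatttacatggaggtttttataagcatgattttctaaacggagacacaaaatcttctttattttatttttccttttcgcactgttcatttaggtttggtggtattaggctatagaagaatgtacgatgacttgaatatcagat
BRI1, chr4:18324157-18324456, plus strand: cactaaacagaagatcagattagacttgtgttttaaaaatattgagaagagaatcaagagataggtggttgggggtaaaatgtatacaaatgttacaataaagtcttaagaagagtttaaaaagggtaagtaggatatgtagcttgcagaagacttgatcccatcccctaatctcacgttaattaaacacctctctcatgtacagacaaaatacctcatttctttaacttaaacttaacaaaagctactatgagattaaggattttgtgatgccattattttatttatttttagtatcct
HBI1, chr2:7954786-7955085, minus strand: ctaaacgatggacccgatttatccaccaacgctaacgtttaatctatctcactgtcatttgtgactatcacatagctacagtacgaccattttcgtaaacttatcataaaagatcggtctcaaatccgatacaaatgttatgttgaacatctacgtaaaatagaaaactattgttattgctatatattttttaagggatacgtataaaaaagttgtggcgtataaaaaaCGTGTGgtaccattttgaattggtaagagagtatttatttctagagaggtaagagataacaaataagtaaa

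The BEE1 window holds a G-box 136 bases before the gene start, and 7.09% of 27443 windows of the same length before protein-coding genes hold one. BZR1 is the other member with a G-box, 85 bases before its start. PIF-binding E-boxes stand 164 and 53 bases before BEE2 and 242 bases before BES1, against 13.1% of all windows with at least 1. BZR1-binding elements stand before BZR1 itself (178 and 22 bases), BIM1 (184 bases), HBI1 (71 bases) and CES (145 bases), against 7.64% of all windows. None of these 3 motifs was found in the windows before BRI1, BKI1 and BEE3. A match is a description of the letters and not of binding.

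Set per kilobase of exon, the members differed widely in level in WT at 0 h. BES1 was highest at 67.7 CPM per kb, ahead of BEE2 at 33.5, BRI1 at 28.3, HBI1 at 25.5, BIM1 at 20.3 and BZR1 at 13 CPM per kb. BEE3 stood at 8.01, BKI1 at 7.65 and BEE1 at 3.09 CPM per kb, and CES at 0.00914 CPM per kb. All levels below are CPM without division by length and serve to compare groups for 1 gene.

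**Figure D1:**
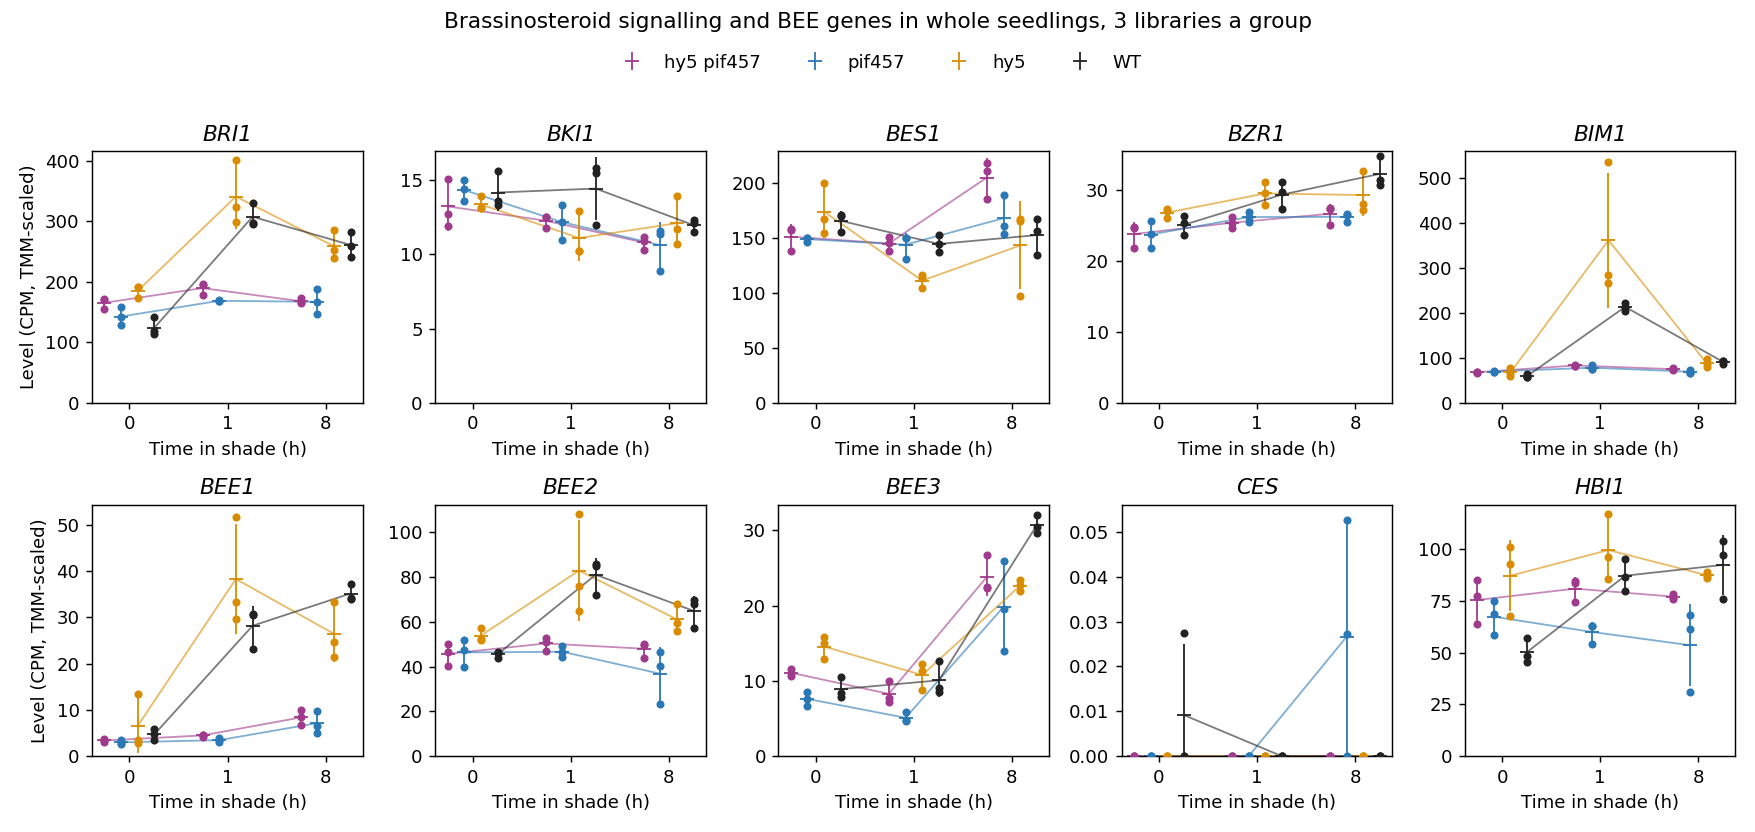
Level (CPM, TMM-scaled) of the 10 genes by hours in shade, with each dot 1 library, horizontal ticks the group means and vertical lines the SD (n = 3). BRI1, BIM1, BEE1 and BEE2 separate at 1 h into a low pair of genotypes (hy5 pif457 and pif457) and a high pair (hy5 and WT), while BKI1 stays between 8.85 and 15.8 CPM in all libraries and CES is at 0 in 33 of 36.

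Members were called at 1 h of shade in WT and hy5 and in neither genotype with pif457, where called means an adjusted p under 0.05 in the edgeR quasi-likelihood test over all 21562 genes. In hy5 pif457 no tested member was called at 1 h of shade against 0 h, where 0.181% of all genes were called. One member, BEE3, had an unadjusted p under 0.05 there, and DESeq2 called none. At 8 h, hy5 pif457 had 3 of 9 called (BES1, BEE1 and BEE3, all higher), beside 10.9% of all genes in either direction and 4.73% higher. In pif457 none was called at 1 h, beside 0.227% of all genes; BRI1 and BEE3 had an unadjusted p under 0.05 and DESeq2 called none. After 8 h in pif457, 3 of 9 were called (BEE1 and BEE3 higher, BKI1 lower), beside 9.94% of all genes, with 9.57% to 10.9% of counts from ribosomal RNA at 8 h, against 0.548% to 1.31% at 0 h. In hy5, 5 of 9 were called at 1 h (BRI1, BIM1, BEE1 and BEE2 higher, BES1 lower), beside 6.77% of all genes, and 3 of 9 at 8 h (BRI1, BEE1 and BEE3, all higher), beside 9.27% in either direction and 4.52% higher. In WT, 5 of 9 were called at 1 h (BRI1, BIM1, BEE1, BEE2 and HBI1), all higher, beside 5.2% of all genes in either direction and 3.56% higher. At 8 h in WT, 7 of 9 were called (the same 5 genes with BZR1 and BEE3), all higher, beside 19.2% of all genes in either direction and 12% higher. The median log2 fold change of the 9 tested members in WT was 0.79 at 1 h and 0.61 at 8 h, beside 0.02 and -0.03 over all genes tested. The 0 h group of each genotype is the control of both times. Of the 72 member tests of shade against 0 h, 26 were called, 24 of them higher and 2 lower.

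**Figure D2:**
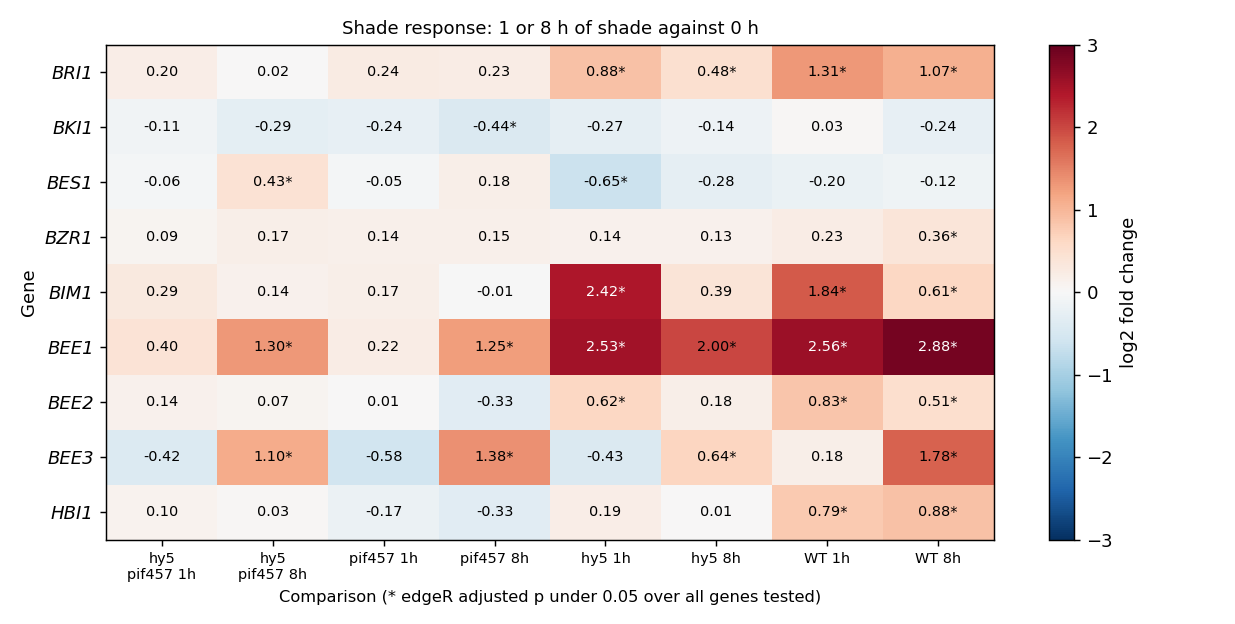
Log2 fold change of 1 or 8 h of shade against 0 h in each genotype for the 9 tested genes, with an asterisk at an edgeR adjusted p under 0.05. The BIM1 and BEE1 cells at 1 h read 2.42 and 2.53 in hy5 and 1.84 and 2.56 in WT, while no cell of the 1 h columns of hy5 pif457 or pif457 carries an asterisk.

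BRI1 (AT4G39400, chr4:18324457-18328831 in TAIR10.1, plus strand), the brassinosteroid receptor, rose within 1 h in WT and hy5 and passed no shade test in hy5 pif457 or pif457. In hy5 pif457 it measured 171, 170 and 155 CPM at 0 h, 197, 178 and 194 CPM at 1 h, and 166, 173 and 165 CPM at 8 h. In pif457 it measured 158, 142 and 128 CPM at 0 h, 168, 168 and 170 CPM at 1 h, and 188, 167 and 146 CPM at 8 h. In both genotypes the 1 h libraries lay above the 0 h libraries without overlap, with log2 changes of 0.20 ± 0.11 in hy5 pif457 and 0.24 ± 0.11 in pif457 that did not pass the test, and the 8 h libraries overlapped those of 0 h. In hy5 the values were 191, 192 and 173 CPM at 0 h, 323, 299 and 401 CPM at 1 h, and 240, 285 and 252 CPM at 8 h. In WT they were 113, 142 and 118 CPM at 0 h, 298, 295 and 330 CPM at 1 h, and 241, 260 and 282 CPM at 8 h. All shaded libraries of hy5 and WT lay above their own 0 h libraries, and the hy5 0 h libraries lay above the WT 0 h libraries. The log2 change at 1 h was 0.88 ± 0.11 in hy5 (SE, adjusted p = 1.53e-06, edgeR) and 1.31 ± 0.11 in WT (adjusted p = 1.21e-09, edgeR). At 8 h it was 0.48 ± 0.11 in hy5 (adjusted p = 0.0037, edgeR) and 1.07 ± 0.11 in WT (adjusted p = 4.36e-08, edgeR). The hy5 call at 8 h was lost without hy5 8 h replicate 2 (0.39, adjusted p = 0.0579, edgeR).

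BRI1 also differed from WT in at least 1 mutant at each time. At 0 h it was 0.58 ± 0.11 higher (log2) in hy5 than in WT (adjusted p = 0.00111, edgeR) and 0.41 ± 0.11 higher in hy5 pif457 than in WT (adjusted p = 0.0163, edgeR). The second call was lost when any 1 of 19 libraries was left out: all 9 of hy5 pif457, WT 0 h replicates 1 and 3, all 3 of WT 1 h, WT 8 h replicates 2 and 3, hy5 0 h replicates 2 and 3, and pif457 8 h replicate 2 (adjusted p 0.0518 to 0.144, edgeR). At 1 h the log2 difference of BRI1 from WT was -0.70 ± 0.11 in hy5 pif457 and -0.86 ± 0.11 in pif457. The mean levels were 190 ± 10.2 CPM in hy5 pif457, 169 ± 0.961 CPM in pif457 and 307 ± 19.5 CPM in WT (SD, n = 3 each), with adjusted p of 5.88e-05 and 1.99e-06 for the 2 mutants by edgeR. At 8 h it was -0.64 ± 0.11 in both hy5 pif457 (adjusted p = 0.000149, edgeR) and pif457 (adjusted p = 0.000202, edgeR). From 1 to 8 h BRI1 fell by 0.40 on the log2 scale in hy5 (adjusted p = 0.0202, edgeR). That call was lost without any 1 of 18 libraries: all 9 of hy5 pif457, hy5 0 h replicates 2 and 3, hy5 1 h replicate 3, hy5 8 h replicates 1 and 3, WT 1 h replicate 3, WT 8 h replicates 2 and 3, and pif457 8 h replicate 2 (adjusted p 0.0531 to 0.278, edgeR).

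BKI1 (AT5G42750, chr5:17142816-17144672 in TAIR10.1, minus strand), the membrane-bound inhibitor of BRI1, kept within a narrow range, with group means from 10.6 CPM in pif457 at 8 h to 14.4 CPM in pif457 at 0 h and in WT at 1 h. Single libraries ran from 8.85 to 15.8 CPM. Its 1 call against 0 h was at 8 h in pif457, where the libraries held 11.6, 11.4 and 8.85 CPM, against 15, 14.4 and 13.6 CPM at 0 h. The groups did not overlap, and the log2 change was -0.44 ± 0.12 (adjusted p = 0.022, edgeR). The call was lost without pif457 0 h replicate 1 or 2 or pif457 8 h replicate 3 (adjusted p 0.0544 to 0.187, edgeR). In WT the log2 change was 0.03 ± 0.12 at 1 h and -0.24 ± 0.12 at 8 h, with adjusted p of 0.928 and 0.156 by edgeR.

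BES1 (AT1G19350, chr1:6688463-6691216 in TAIR10.1, plus strand), the brassinosteroid-activated factor with the most transcript per kb, fell at 1 h in hy5, rose at 8 h in hy5 pif457 and passed no shade test in WT or pif457. In hy5 the libraries held 167, 200 and 154 CPM at 0 h, 116, 113 and 104 CPM at 1 h, and 167, 96.8 and 165 CPM at 8 h. The 3 libraries at 1 h lay below all 3 at 0 h, and at 8 h replicate 2 lay far below the other 2. In hy5 pif457 they held 158, 157 and 138 CPM at 0 h, 145, 138 and 151 CPM at 1 h, and 218, 185 and 211 CPM at 8 h, the 8 h libraries above the rest. BES1 fell by 0.65 ± 0.14 on the log2 scale at 1 h in hy5 (adjusted p = 0.00248, edgeR). It rose by 0.43 ± 0.14 at 8 h in hy5 pif457 against 0 h (adjusted p = 0.0392, edgeR) and by 0.50 ± 0.14 against 1 h (adjusted p = 0.039, edgeR). The 8 h calls were each lost without hy5 pif457 8 h replicate 1 or 3 or any single library of the earlier hy5 pif457 group compared (adjusted p 0.053 to 0.154, edgeR). In WT the log2 change was -0.20 ± 0.14 at 1 h and -0.12 ± 0.14 at 8 h (adjusted p 0.42 and 0.585, edgeR).

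At 8 h BES1 averaged 204 ± 17.3 CPM in hy5 pif457, 143 ± 39.9 CPM in hy5 and 152 ± 16.4 CPM in WT (SD, n = 3 each). The log2 difference of hy5 pif457 from hy5 was 0.52 ± 0.14 (adjusted p = 0.00854, edgeR), and without hy5 8 h replicate 2 it was 0.32 (adjusted p = 0.0918, edgeR). The difference of hy5 pif457 from WT was 0.42 ± 0.14 (adjusted p = 0.0299, edgeR). It was lost without any 1 of 11 libraries: WT 1 h replicate 3, WT 8 h replicates 1 and 3, pif457 8 h replicate 2, hy5 pif457 0 h replicates 1 and 2, all 3 of hy5 pif457 1 h, and hy5 pif457 8 h replicates 1 and 3 (adjusted p 0.0511 to 0.166, edgeR). BES1 shares 30.87% of its 50-base stretches on the opposite strand with AT1G19360, which overlaps it, and with AT1G09523, a long non-coding RNA gene that overlaps BZR1, and 0.86% on the same strand with BZR1. The strand setting of the counting is not given in the sources used here, so reads of those genes may be included.

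BZR1 (AT1G75080, chr1:28185504-28188075 in TAIR10.1, plus strand), the closest relative of BES1 among the members, had small changes with little spread. It rose by 0.36 ± 0.07 on the log2 scale at 8 h in WT (adjusted p = 0.000879, edgeR), where the libraries held 30.7, 31.4 and 34.8 CPM, against 25.3, 23.6 and 26.4 CPM at 0 h. At 8 h it averaged 26.7 ± 1.34 CPM in hy5 pif457, 26.2 ± 0.619 CPM in pif457 and 32.3 ± 2.17 CPM in WT (SD, n = 3 each). Both mutants lay below every WT library at that time, with log2 differences of -0.28 ± 0.07 in hy5 pif457 (adjusted p = 0.0108, edgeR) and -0.30 ± 0.07 in pif457 (adjusted p = 0.00981, edgeR). The hy5 pif457 call was lost without WT 8 h replicate 3 or hy5 pif457 8 h replicate 1 (adjusted p 0.0719 to 0.109, edgeR), and the pif457 call without WT 8 h replicate 3 or pif457 8 h replicate 3 (adjusted p 0.0558 to 0.0659, edgeR). BZR1 shares 20.27% of its 50-base stretches on the opposite strand with overlapping neighbours (AT1G75090 and AT1G09523), so the limit given for BES1 holds here too.

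BIM1 (AT5G08130, chr5:2606002-2610250 in TAIR10.1, minus strand), a bHLH partner of BES1 in DNA binding, had a short peak at 1 h in hy5 and WT. In hy5 the libraries held 66, 76.5 and 59.9 CPM at 0 h, 284, 266 and 535 CPM at 1 h, and 87.1, 97.8 and 79.4 CPM at 8 h. In WT they held 58.1, 63.1 and 57.2 CPM at 0 h, 205, 221 and 214 CPM at 1 h, and 93.2, 92.3 and 87 CPM at 8 h. Every 1 h library of both genotypes lay above every other library of the same genotype, and hy5 replicate 3 lay far above its group. In hy5 pif457 it measured 66.6 to 69.3 CPM at 0 h, 82.3 to 84.1 CPM at 1 h and 72.3 to 76.7 CPM at 8 h, and in pif457 67.8 to 71.4, 74.2 to 84.7 and 66.4 to 73.8 CPM at the same times. The 1 h libraries of both, and the 8 h libraries of hy5 pif457, lay above their 0 h libraries without overlap. At 1 h this came with log2 changes of 0.29 ± 0.15 in hy5 pif457 and 0.17 ± 0.15 in pif457 that did not pass the test (adjusted p 0.965 and 0.912, edgeR). These SE rest on the spread over all 12 groups, hy5 1 h replicate 3 included, and not on the groups compared alone. The log2 change at 1 h was 2.42 ± 0.16 in hy5 (adjusted p = 1.21e-11, edgeR) and 1.84 ± 0.15 in WT (adjusted p = 1.18e-09, edgeR). Without hy5 1 h replicate 3 the hy5 value was 1.99 (adjusted p = 4.47e-15, edgeR). From 1 to 8 h BIM1 fell by 2.04 ± 0.15 in hy5 (adjusted p = 1.48e-09, edgeR) and by 1.23 ± 0.15 in WT (adjusted p = 2.24e-06, edgeR). At 8 h in WT it was still 0.61 ± 0.15 above 0 h (adjusted p = 0.00462, edgeR). Without hy5 1 h replicate 3 this WT value was 0.62 (adjusted p = 1.78e-06, edgeR).

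The log2 difference of BIM1 from WT at 1 h was -1.36 ± 0.15 in hy5 pif457 (adjusted p = 3.56e-07, edgeR), -1.45 ± 0.15 in pif457 (adjusted p = 7.48e-08, edgeR) and 0.76 ± 0.15 in hy5 (adjusted p = 0.00272, edgeR). The hy5 difference from WT was 0.33 without hy5 1 h replicate 3 (adjusted p = 0.03, edgeR). In the fit of only the groups compared the hy5 difference was 0.73 (adjusted p = 0.218, edgeR). The difference between the 1 h responses of hy5 and WT was 0.58 ± 0.21 and did not pass the test (adjusted p = 0.328, edgeR).

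BEE1 (AT1G18400, chr1:6331398-6333856 in TAIR10.1, plus strand), the first of the 3 BEE factors, had the largest fold change of the members at 1 and at 8 h in WT. In hy5 pif457 the libraries held 3.4, 3.79 and 3.01 CPM at 0 h, 4.6, 4.65 and 4.22 CPM at 1 h, and 9.93, 6.66 and 8.52 CPM at 8 h. In pif457 they held 2.57, 3.6 and 2.84 CPM at 0 h, 3.6, 2.97 and 3.86 CPM at 1 h, and 9.82, 6.52 and 5.11 CPM at 8 h. In both, the 8 h libraries lay above the 0 h libraries without overlap. The 1 h libraries of hy5 pif457 also lay above those of 0 h, while those of pif457 overlapped. The log2 changes at 1 h, 0.40 ± 0.38 in hy5 pif457 and 0.22 ± 0.37 in pif457, did not pass the test. In hy5 they held 3.5, 2.86 and 13.4 CPM at 0 h, 33.4, 29.7 and 51.7 CPM at 1 h, and 24.7, 33.2 and 21.4 CPM at 8 h, so that 1 of the 0 h libraries stood well above the other 2. In WT they held 5.96, 3.49 and 4.84 CPM at 0 h, 30.7, 23.2 and 30.6 CPM at 1 h, and 34.2, 37.2 and 34 CPM at 8 h. The log2 change at 1 h was 2.53 ± 0.36 in hy5 (adjusted p = 1.62e-05, edgeR) and 2.56 ± 0.37 in WT (adjusted p = 1.98e-05, edgeR). At 8 h it was 2.00 ± 0.35 in hy5 (adjusted p = 0.000334, edgeR) and 2.88 ± 0.37 in WT (adjusted p = 2.25e-06, edgeR). Without hy5 0 h replicate 3 the hy5 values were 3.55 at 1 h (adjusted p = 6.46e-09, edgeR) and 3.05 at 8 h (adjusted p = 1.22e-07, edgeR).

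BEE1 was also called higher at 8 h in both genotypes with pif457. At 8 h against 0 h it was 1.3 ± 0.37 in hy5 pif457 (adjusted p = 0.0271, edgeR) and 1.25 ± 0.37 in pif457 (adjusted p = 0.033, edgeR). The first was lost without hy5 pif457 8 h replicate 1 or 3 or any 0 h replicate of hy5 pif457 (adjusted p 0.0556 to 0.103, edgeR), and the second without any single pif457 library of 0 or 8 h (adjusted p 0.0525 to 0.115, edgeR). Without hy5 0 h replicate 3, which is in neither comparison, the changes were 1.34 in hy5 pif457 (adjusted p = 0.00146, edgeR) and 1.23 in pif457 (adjusted p = 0.00288, edgeR). Against WT, BEE1 was at 16% of the WT level in hy5 pif457 and 12.4% in pif457 at 1 h, with log2 differences of -2.65 ± 0.37 (adjusted p = 1.33e-05, edgeR) and -3.01 ± 0.37 (adjusted p = 1.76e-06, edgeR). At 8 h it was at 23.8% in hy5 pif457 (adjusted p = 0.000183, edgeR) and 20.3% in pif457 (adjusted p = 8.4e-05, edgeR). At 0 h no BEE1 difference from WT passed the test in any mutant, with log2 differences of -0.49 ± 0.38 in hy5 pif457, -0.67 ± 0.37 in pif457 and 0.47 ± 0.36 in hy5.

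BEE2 (AT4G36540, chr4:17243583-17245296 in TAIR10.1, plus strand), the second BEE factor, rose at 1 h in hy5 and WT. It measured 44.2 to 52.8 CPM in the 6 libraries of hy5 pif457 and pif457 at 1 h, with 40.4 to 50.1 CPM in hy5 pif457 and 39.9 to 51.9 CPM in pif457 at 0 h. In hy5 the libraries held 76.1, 64.7 and 108 CPM at 1 h, against 52, 57.2 and 52.5 CPM at 0 h, and in WT 85.1, 72.2 and 85.9 CPM at 1 h, against 44, 46.2 and 46.5 CPM at 0 h. The 1 h and 0 h libraries did not overlap in hy5 or WT. BEE2 rose by 0.62 ± 0.17 in hy5 (adjusted p = 0.0221, edgeR) and by 0.83 ± 0.17 in WT (adjusted p = 0.00262, edgeR) on the log2 scale. The hy5 value was 0.34 without hy5 1 h replicate 3 (adjusted p = 0.295, edgeR). That call was also lost without any hy5 0 h replicate, WT 1 h replicate 3, WT 8 h replicate 2 or 3, pif457 8 h replicate 2, hy5 pif457 0 h replicate 1 or 2, or any hy5 pif457 replicate of 1 or 8 h, with adjusted p from 0.0508 upward in edgeR.

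At 8 h BEE2 held 57.1, 69.6 and 68 CPM in WT, against 44, 46.2 and 46.5 CPM at 0 h, a log2 change of 0.51 ± 0.17 (adjusted p = 0.0345, edgeR). That call was lost without any 1 of 11 libraries: all 3 of WT 0 h, WT 1 h replicate 1, WT 8 h replicates 2 and 3, hy5 pif457 0 h replicate 2, hy5 pif457 1 h replicates 1 and 3, and hy5 pif457 8 h replicates 1 and 3 (adjusted p 0.0504 to 0.15, edgeR). The log2 difference of BEE2 from WT at 1 h was -0.69 ± 0.17 in hy5 pif457 (adjusted p = 0.00961, edgeR) and -0.80 ± 0.17 in pif457 (adjusted p = 0.00445, edgeR). The first was lost without WT 1 h replicate 1 or 3 or hy5 pif457 1 h replicate 2 (adjusted p 0.0511 to 0.0732, edgeR), and the second without WT 1 h replicate 3 (adjusted p = 0.0736, edgeR). The difference between the 1 h response of BEE2 and that in WT did not pass the test in hy5 pif457 or pif457. At 8 h the pif457 libraries held 46.7, 40.3 and 23.5 CPM with a log2 difference from WT of -0.82 ± 0.17 (adjusted p = 0.00252, edgeR). Without pif457 8 h replicate 3, the lowest of them, the difference was -0.58 (adjusted p = 0.0239, edgeR). The summed level of 8 shoot markers was 10200 CPM in that library, against 16100 and 21300 CPM in the other 2, and its part in the BEE2 value was not tested. Most of this sum was RBCS1A, with group means of 15600 to 22100 CPM, and no other shoot marker had a group mean over 155 CPM. With the root score as a covariate the BEE2 difference was -0.56 (adjusted p = 0.101, edgeR).

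BEE3 (AT1G73830, chr1:27759941-27761588 in TAIR10.1, plus strand), the third BEE factor, was not called at 1 h in any genotype and rose at 8 h in all 4. In hy5 pif457 the libraries held 11.1, 11.6 and 10.6 CPM at 0 h, 9.96, 7.14 and 7.75 CPM at 1 h, and 26.7, 22.3 and 22.5 CPM at 8 h. In pif457 they held 8.58, 7.65 and 6.62 CPM at 0 h, 5.86, 4.81 and 4.65 CPM at 1 h, and 25.9, 19.6 and 14 CPM at 8 h. In both the 1 h libraries were the lowest and the 8 h libraries the highest, with no overlap between times. In hy5 they held 15, 12.9 and 15.8 CPM at 0 h, 11.3, 8.86 and 12.2 CPM at 1 h, and 23.4, 21.9 and 22.7 CPM at 8 h. The hy5 libraries thus kept the same order, also with no overlap between times. In WT they held 8.38, 10.5 and 7.88 CPM at 0 h, 12.6, 8.57 and 9.08 CPM at 1 h, and 29.7, 32 and 30.4 CPM at 8 h. The 0 and 1 h libraries of WT overlapped. The log2 change at 8 h against 0 h was 1.10 ± 0.17 in hy5 pif457 (adjusted p = 0.000328, edgeR), 1.38 ± 0.18 in pif457 (adjusted p = 1.55e-05, edgeR), 0.64 ± 0.17 in hy5 (adjusted p = 0.0164, edgeR) and 1.78 ± 0.18 in WT (adjusted p = 3.17e-08, edgeR). The hy5 call was lost without hy5 0 h replicate 2 or hy5 8 h replicate 1 (adjusted p 0.0675 to 0.104, edgeR), and the pif457 call in a fit of only the 2 groups compared (1.35, adjusted p = 0.171, edgeR).

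From 1 to 8 h BEE3 also rose in every genotype. The log2 change was 1.52 ± 0.18 in hy5 pif457 (adjusted p = 6.29e-06, edgeR), 1.96 ± 0.18 in pif457 (adjusted p = 4.33e-08, edgeR), 1.07 ± 0.17 in hy5 (adjusted p = 0.000147, edgeR) and 1.60 ± 0.18 in WT (adjusted p = 4.5e-07, edgeR). At 0 h BEE3 was 0.71 ± 0.17 higher in hy5 than in WT (adjusted p = 0.011, edgeR), a call lost without WT 0 h replicate 1 or 3 or hy5 0 h replicate 3 (adjusted p 0.0586 to 0.0781, edgeR). Its log2 difference from WT in pif457 was -0.98 ± 0.18 at 1 h (adjusted p = 0.000626, edgeR) and -0.63 ± 0.17 at 8 h (adjusted p = 0.0174, edgeR). The 8 h call was lost without WT 8 h replicate 2 or 3 or pif457 8 h replicate 3 (adjusted p 0.0604 to 0.174, edgeR).

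CES (AT1G25330, chr1:8880267-8882100 in TAIR10.1, minus strand), a bHLH factor related to the BEE proteins, had 4 counts in all 36 libraries together: 1 count in WT at 0 h and 3 counts over 2 pif457 libraries at 8 h. The other 33 libraries held 0 counts. In any 1 library taken alone, 0 counts would still allow an expected 3, a bound that does not hold for the 33 together. It did not pass the filter on low counts and was not tested.

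HBI1 (AT2G18300, chr2:7952404-7954785 in TAIR10.1, minus strand), the growth-promoting partner of the small HLH proteins, stood above the WT level at 0 h in hy5 and rose in shade in WT, and it passed no shade test in the mutants. In hy5 pif457 the libraries held 85.2, 77.4 and 63.6 CPM at 0 h, 83.7, 74.5 and 84.5 CPM at 1 h, and 76.9, 78.1 and 76.1 CPM at 8 h. In pif457 they held 74.9, 68.7 and 58.5 CPM at 0 h, 54.4, 62.8 and 62.8 CPM at 1 h, and 68.4, 61.2 and 31.2 CPM at 8 h. Shaded and 0 h libraries overlapped in both. In hy5 they held 92.6, 101 and 67.8 CPM at 0 h, 96.1, 85.5 and 117 CPM at 1 h, and 87.2, 89 and 86 CPM at 8 h. In WT they held 45.6, 57 and 48.3 CPM at 0 h, 95.3, 79.7 and 86.4 CPM at 1 h, and 76, 104 and 97.1 CPM at 8 h. All shaded WT libraries, at 76 to 104 CPM, lay above the WT 0 h libraries, and the hy5 libraries lay at 67.8 to 101 CPM before shade. The log2 change in WT was 0.79 ± 0.19 at 1 h (adjusted p = 0.0102, edgeR) and 0.88 ± 0.19 at 8 h (adjusted p = 0.00151, edgeR). The 1 h call was lost without replicate 1 or 3 of WT at 0 or 1 h (adjusted p 0.0515 to 0.0815, edgeR). In hy5 the log2 change was 0.19 ± 0.19 at 1 h and 0.01 ± 0.19 at 8 h (adjusted p 0.602 and 0.989, edgeR). The difference between the HBI1 responses of hy5 and WT did not pass the test at 1 h or at 8 h.

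Before shade HBI1 was 0.79 ± 0.19 higher on the log2 scale in hy5 than in WT (adjusted p = 0.00874, edgeR) and 0.58 ± 0.19 higher in hy5 pif457 than in WT (adjusted p = 0.0488, edgeR). The hy5 call was lost without WT 0 h replicate 1 or 3 or hy5 0 h replicate 2 (adjusted p 0.0509 to 0.0658, edgeR). The hy5 pif457 call was lost without any single library other than WT 0 h replicate 2, WT 8 h replicate 1, hy5 1 h replicate 2 and pif457 8 h replicate 3 (adjusted p 0.0518 to 0.242, edgeR). The log2 difference of HBI1 in pif457 from WT at 8 h was -0.79 ± 0.19 (adjusted p = 0.00794, edgeR). That difference was -0.51 without pif457 8 h replicate 3 (adjusted p = 0.0632, edgeR) and was not called either without WT 8 h replicate 2 (-0.73, adjusted p = 0.064, edgeR). With the mean log2 level of the root markers (the root score) as a covariate it was -0.44 (adjusted p = 0.296, edgeR), and the mean root score was 2.1 in pif457, against 0.189 in WT.

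**Figure D3:**
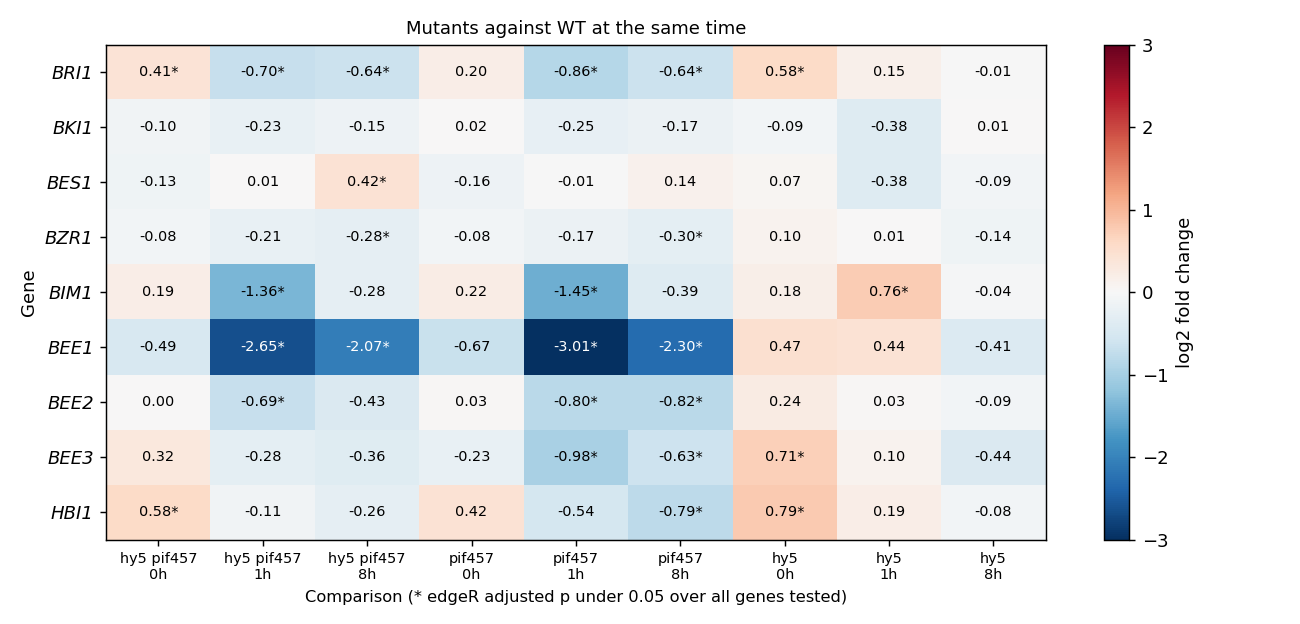
Log2 fold change of each mutant against WT at the same time for the 9 tested genes, with an asterisk at an edgeR adjusted p under 0.05. BEE1 has the darkest cells, -2.65 and -2.07 in hy5 pif457 and -3.01 and -2.30 in pif457 at 1 and 8 h, while the called cells of hy5 are positive.

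Over the mutant comparisons with WT, 25 of 81 member tests were called, 7 higher and 18 lower. In hy5 pif457, 2 of 9 members were called at 0 h beside 8.94% of all genes, 4 at 1 h beside 7.57%, and 4 at 8 h beside 18.7%. In pif457 none was called at 0 h beside 0.0835% of all genes, where HBI1 had an unadjusted p under 0.05 and DESeq2 called none. At 1 h in pif457, 5 of 9 were called, all lower, beside 2.57% of all genes in either direction and 2.24% lower, and at 8 h 6 of 9 were called, all lower, beside 11.3% in either direction and 4.67% lower. At 8 h ribosomal RNA took 9.57% to 10.9% of counts in pif457, against 0.636% to 0.815% in WT. In hy5, 3 of 9 were called at 0 h (BRI1, BEE3 and HBI1, all higher) beside 9.49% of all genes in either direction and 6.35% higher, and 1 at 1 h (BIM1) beside 4.27%. After 8 h in hy5 none was called beside 2.61% of all genes; BEE3 had an unadjusted p under 0.05 and DESeq2 called none. From 1 to 8 h, 2 members were called in hy5 pif457 beside 3.66% of all genes, 1 in pif457 beside 2.51%, 3 in hy5 beside 7.17% and 2 in WT beside 8.16%.

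The shade responses of the mutants were set against that of WT directly, as a difference of log2 fold changes. Of 54 such member tests, 13 were called, and in all 13 the response was lower in the mutant. At 1 h the responses of BRI1, BIM1 and BEE1 were lower in hy5 pif457, beside 0.969% of all genes called in either direction and 0.872% lower, and in pif457, beside 0.872% in either direction and 0.844% lower. For BRI1 the difference was -1.11 ± 0.15 in hy5 pif457 and -1.06 ± 0.15 in pif457, and for BIM1 it was -1.55 ± 0.21 in hy5 pif457 and -1.68 ± 0.21 in pif457, with adjusted p of 8.64e-06 to 5.48e-05 by edgeR. For BEE1 it was -2.16 ± 0.52 in hy5 pif457 (adjusted p = 0.0339, edgeR) and -2.34 ± 0.52 in pif457 (adjusted p = 0.0142, edgeR). The pif457 call of BEE1 was lost without WT 0 h replicate 2, WT 1 h replicate 1 or 3, or replicate 2 of pif457 at 0 or 1 h (adjusted p 0.0514 to 0.0628, edgeR). It was also lost without the 12 libraries rich in ribosomal RNA (-2.31, adjusted p = 0.0906, edgeR). The hy5 pif457 call was lost without any 1 of 19 libraries: all 9 of hy5 pif457, WT 0 h replicates 2 and 3, WT 1 h replicates 1 and 3, WT 8 h replicates 2 and 3, hy5 8 h replicate 1, pif457 0 h replicates 1 and 3, and pif457 8 h replicate 2 (adjusted p 0.0506 to 0.129, edgeR). The library that stood apart for BEE1, hy5 0 h replicate 3, is in neither comparison but enters the shared fit. Without it the BEE1 difference was -2.13 in hy5 pif457 (adjusted p = 0.000449, edgeR) and -2.30 in pif457 (adjusted p = 0.000155, edgeR). In hy5 no response at 1 h differed from WT, beside 0% of all genes; BRI1, BES1, BIM1, BEE3 and HBI1 had an unadjusted p under 0.05 there and DESeq2 called no member.

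At 8 h the response of BRI1 was lower than in WT in hy5 pif457 (-1.05 ± 0.15, adjusted p = 6.8e-05, edgeR), pif457 (-0.84 ± 0.15, adjusted p = 0.00177, edgeR) and hy5 (-0.59 ± 0.15, adjusted p = 0.0446, edgeR). The hy5 call was lost without any library other than WT 0 h replicate 2, WT 8 h replicate 1, hy5 0 h replicate 3, hy5 1 h replicates 2 and 3, hy5 8 h replicate 2, and pif457 8 h replicates 1 and 3 (adjusted p 0.0513 to 0.196, edgeR). The response of HBI1 was lower in hy5 pif457 (-0.85 ± 0.26, adjusted p = 0.034, edgeR) and in pif457 (-1.21 ± 0.26, adjusted p = 0.0116, edgeR), the second lost without WT 8 h replicate 2 (adjusted p = 0.0532, edgeR). That of BEE1 was lower in hy5 pif457 (-1.58 ± 0.51, adjusted p = 0.04, edgeR), and that of BEE3 in hy5 (-1.14 ± 0.24, adjusted p = 0.016, edgeR). The BEE3 call was lost without WT 0 h replicate 3, WT 8 h replicate 2 or 3, or hy5 8 h replicate 1 (adjusted p 0.0554 to 0.0618, edgeR). The hy5 pif457 calls of BEE1 and HBI1 were lost without 20 and 21 single libraries, in both cases any of hy5 pif457, any of WT 1 h, WT 0 h replicate 3, WT 8 h replicates 2 and 3, hy5 8 h replicate 1, pif457 0 h replicate 3 and pif457 8 h replicate 2. For BEE1 these were joined by WT 0 h replicate 2 and WT 8 h replicate 1, and for HBI1 by WT 0 h replicate 1, hy5 0 h replicate 2 and hy5 8 h replicate 2 (adjusted p up to 0.0988 for BEE1 and 0.125 for HBI1, edgeR). Without hy5 0 h replicate 3 the BEE1 difference in hy5 pif457 was -1.55 (adjusted p = 0.00468, edgeR). The counts at 8 h were 3 of 9 members in hy5 pif457 beside 13.7% of all genes (8.94% lower), 2 in pif457 beside 2.92% (1.62% lower) and 2 in hy5 beside 1.53% (1.09% lower). A response difference also holds the difference between genotypes at 0 h. BRI1 in hy5 and WT averaged 185 and 124 CPM at 0 h, and 259 and 261 CPM at 8 h. BEE3 in hy5 and WT averaged 14.6 and 8.92 CPM at 0 h, and 22.7 and 30.7 CPM at 8 h. HBI1 in hy5 pif457, pif457 and WT averaged 75.4, 67.4 and 50.3 CPM at 0 h, and 77.1, 53.6 and 92.5 CPM at 8 h. A call in 1 mutant and not in another was not tested as a difference between them, except for hy5 pif457 against the single mutants below.

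**Figure D4:**
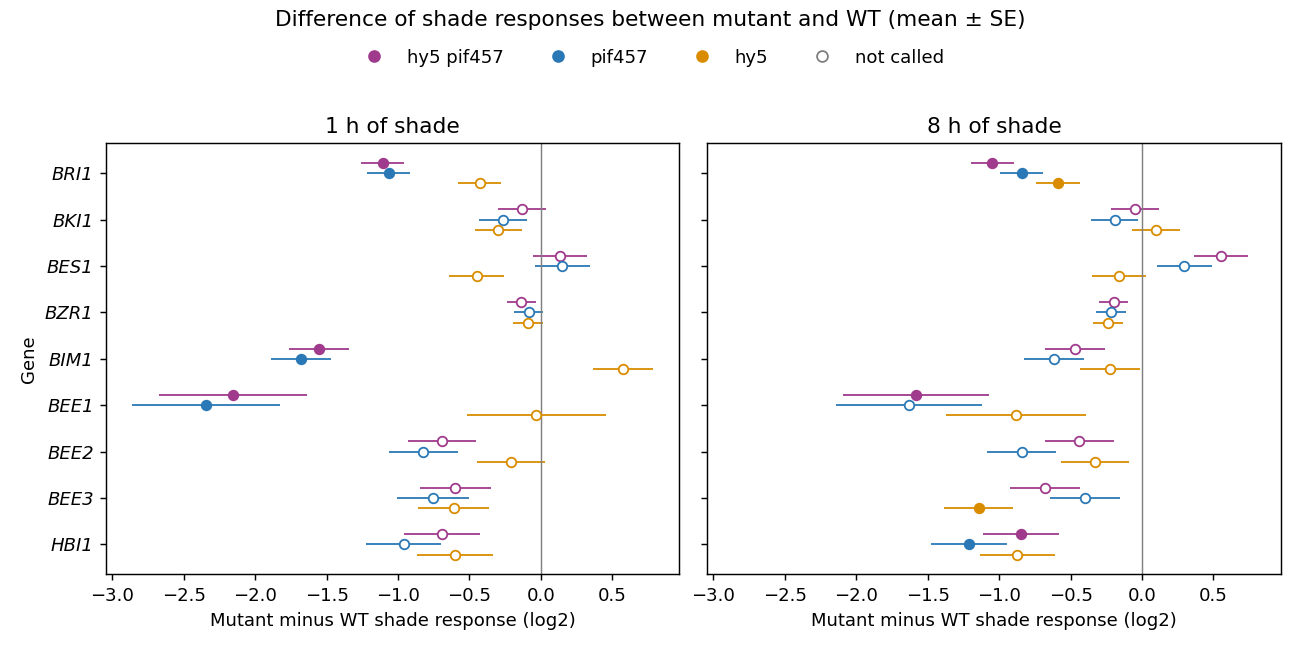
Difference of the shade response (log2 fold change against 0 h) between each mutant and WT at 1 h (left) and 8 h (right), with bars of ± 1 SE and filled symbols for an edgeR adjusted p under 0.05. Filled symbols all lie left of 0, from BEE1 at -2.34 in pif457 to BRI1 at -0.59 in hy5.

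Set against the single mutants at 1 h, hy5 pif457 had more members called against hy5 than against pif457, and these counts were not compared by a test. Against hy5 at 1 h, 4 of 9 members were called, all lower in hy5 pif457, beside 3.8% of all genes in either direction and 2.43% lower: BRI1 at -0.85 ± 0.11, BIM1 at -2.12 ± 0.15, BEE1 at -3.09 ± 0.37 and BEE2 at -0.72 ± 0.17 on the log2 scale, with adjusted p from 8.58e-11 to 0.00888 by edgeR. The BEE2 call was lost without hy5 1 h replicate 3 or any hy5 pif457 1 h replicate (adjusted p 0.0543 to 0.295, edgeR). At 8 h, 3 of 9 were called against hy5 beside 23.7% of all genes: BRI1 was at -0.63 ± 0.11 (adjusted p = 0.000209, edgeR), BEE1 at -1.66 ± 0.35 (adjusted p = 0.00185, edgeR) and BES1 at 0.52 ± 0.14, a difference in log2 of hy5 pif457 from hy5. Against pif457, 1 of 9 was called at 1 h beside 8.04% of all genes and 1 at 8 h beside 26.5%. The count at 1 h lies near the share of all genes, on few members. BEE3 was 0.70 ± 0.18 higher in hy5 pif457 at 1 h (adjusted p = 0.0164, edgeR), lost without pif457 1 h replicate 2 or 3 or any hy5 pif457 1 h replicate (adjusted p 0.0517 to 0.173, edgeR). HBI1 was 0.52 ± 0.19 higher in hy5 pif457 at 8 h (adjusted p = 0.0396, edgeR) and 0.25 higher without pif457 8 h replicate 3 (adjusted p = 0.27, edgeR). That call was also lost without WT 1 h replicate 3, WT 8 h replicate 2 or 3, hy5 8 h replicate 1 or 2, hy5 pif457 0 h replicate 1 or 2, or any hy5 pif457 replicate of 1 or 8 h, with adjusted p from 0.0503 upward in edgeR. At 0 h none of the 9 was called, beside 0.677% of all genes against hy5 and 6.85% against pif457. There, 3 members against hy5 (BZR1, BEE1 and BEE3) and 1 against pif457 (BEE3) had an unadjusted p under 0.05, and DESeq2 called none.

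Some of these calls were lost under other fits, and some member tests not called above were called there. Such gains numbered 15 in the fit of only the groups compared, 12 with the root score as a covariate and 4 in DESeq2. Over all fits that left out 1 library there were 53 gains and 279 losses. When only the groups of a comparison entered the edgeR fit, 25 of the 81 calls were lost, while their log2 values stayed at 90.2% to 108% of those given above. In hy5 these were BEE2 at 1 h, BRI1 and BEE1 at 8 h, BRI1 from 1 to 8 h, all 3 differences from WT at 0 h, BIM1 against WT at 1 h and the BRI1 response difference at 8 h. In pif457 they were BKI1, BEE1 and BEE3 at 8 h against 0 h, BEE3 from 1 to 8 h, BEE3 against WT at 1 h, BRI1, BZR1, BEE2, BEE3 and HBI1 against WT at 8 h, and the BRI1 and HBI1 response differences at 8 h. In hy5 pif457 they were BRI1 against WT at 0 h, BEE2 and BES1 against hy5, and HBI1 against pif457. With the root score as a covariate, 14 were lost, at 55.7% to 107% of the log2 values above: BEE2 at 8 h in WT, the BES1 and BEE1 calls over time in hy5 pif457, BKI1 and BEE1 at 8 h in pif457, BZR1, BEE2, BEE3 and HBI1 in pif457 against WT at 8 h, the response differences at 8 h of BRI1 and BEE3 in hy5 and of HBI1 in pif457, and HBI1 in hy5 pif457 against pif457. The smallest of these was HBI1 in pif457 against WT, and BEE1 at 8 h was at 91.8% in hy5 pif457 and 107% in pif457. The 1 h calls of BRI1, BIM1 and BEE1 in hy5 and WT were kept in both of these settings.

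The rest of the pathway was described with 7 lists of 57 genes. Of 8 tested receptor relatives, co-receptors and membrane kinases other than BRI1 none was called in WT at 1 h, nor was any of 8 cytoplasmic kinases and phosphatases; the list medians were 0.13 and 0.08, beside 0.02 over all genes. These and the next counts stand beside 5.2% of all genes called in WT at 1 h and 3.56% higher. Of 8 homologues and partners of BES1 and BZR1, 4 were higher and 0 lower, with BIM2 at 0.86 ± 0.10 (adjusted p = 6.14e-07), BEH4 at 0.93 ± 0.12 (adjusted p = 4.13e-06) and BEH2 at 0.55 ± 0.10 (adjusted p = 0.000608) by edgeR. BIM2 is a sister of BIM1, and BEH2 and BEH4 are homologues of BES1. Of 10 small HLH factors linked to HBI1, 6 were higher and 0 lower, with a list median of 1.18. Among them PRE6 was at 2.23 ± 0.15 (adjusted p = 4.01e-11), PRE1 at 3.70 ± 0.33 (adjusted p = 5.27e-09) and PAR1 at 1.91 ± 0.18 (adjusted p = 1.55e-08) by edgeR. PRE proteins release HBI1-type factors from inhibition, and PAR1 is a negative regulator of shade responses. Of 10 bHLH relatives of the BEE factors and HBI1, 1 was higher (CIL1, 0.38 ± 0.07, adjusted p = 0.00215, edgeR).

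Hormone metabolism genes were called in both directions in WT at 1 h. Of 8 synthesis genes, 4 were higher and 1 lower: DWF4, which encodes a rate-limiting hydroxylase, was at 0.86 ± 0.09 (adjusted p = 3.17e-08, edgeR), BR6OX2 at 0.99 ± 0.15 (adjusted p = 4.08e-05, edgeR) and CPD at 0.89 ± 0.16 (adjusted p = 0.00066, edgeR). All 4 inactivation genes were called, 2 higher and 2 lower. BAS1, a cytochrome P450 that inactivates brassinosteroids, rose to 35.2 CPM at 1 h, against 5.72 CPM at 0 h (2.62 ± 0.16, adjusted p = 2.83e-12, edgeR). UGT73C6, a glucosyltransferase, fell to 2.03 CPM, against 5.04 CPM (-1.31 ± 0.20, adjusted p = 7.34e-05, edgeR), and SOB7, a relative of BAS1, rose by 0.76 ± 0.17 (adjusted p = 0.00796, edgeR).

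In WT at 8 h the counts of higher and lower genes were 2 and 0 of 8 for the receptor list, 4 and 0 of 8 for the kinases and phosphatases, 4 and 0 of 8 for the BES1 and BZR1 homologues, 8 and 0 of 10 for the small HLH factors, 3 and 0 of 10 for the bHLH relatives, 2 and 1 of 8 for synthesis, and 2 and 1 of 4 for inactivation. Over all genes 19.2% were called and 12% were higher. The receptor list at 2 of 8 and the bHLH relatives at 3 of 10 lie near that share, on few genes. CIB1, a bHLH relative that binds the blue-light receptor cryptochrome, had 1.64 ± 0.15 (adjusted p = 1.34e-08, edgeR), and BIN2, the kinase that inactivates BES1 and BZR1, had 0.35 ± 0.08 (adjusted p = 0.00169, edgeR). In hy5 pif457 at 1 h, 3 genes of all 7 lists were called, beside 0.181% of all genes: DWF4 higher (0.39 ± 0.09, adjusted p = 0.0495, edgeR) and UGT73C5 and UGT73C6 lower. In pif457 at 1 h, 2 were called, both lower, beside 0.227% of all genes: UGT73C6 (-0.94 ± 0.20, adjusted p = 0.0395, edgeR) and CIB1 (-0.73 ± 0.15, adjusted p = 0.0365, edgeR). At 8 h CIB1 rose in hy5 pif457 (1.5 ± 0.15, adjusted p = 1.3e-06, edgeR) and in pif457 (1.45 ± 0.15, adjusted p = 7.37e-07, edgeR). The response at 1 h was lower in pif457 than in WT for 5 of the 10 small HLH factors, beside 0.872% of all genes in either direction and 0.844% lower, among them PRE6 (-2.50 ± 0.22, adjusted p = 2.12e-08, edgeR) and PRE1 (-4.03 ± 0.48, adjusted p = 3.61e-06, edgeR).

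**Figure D5:**
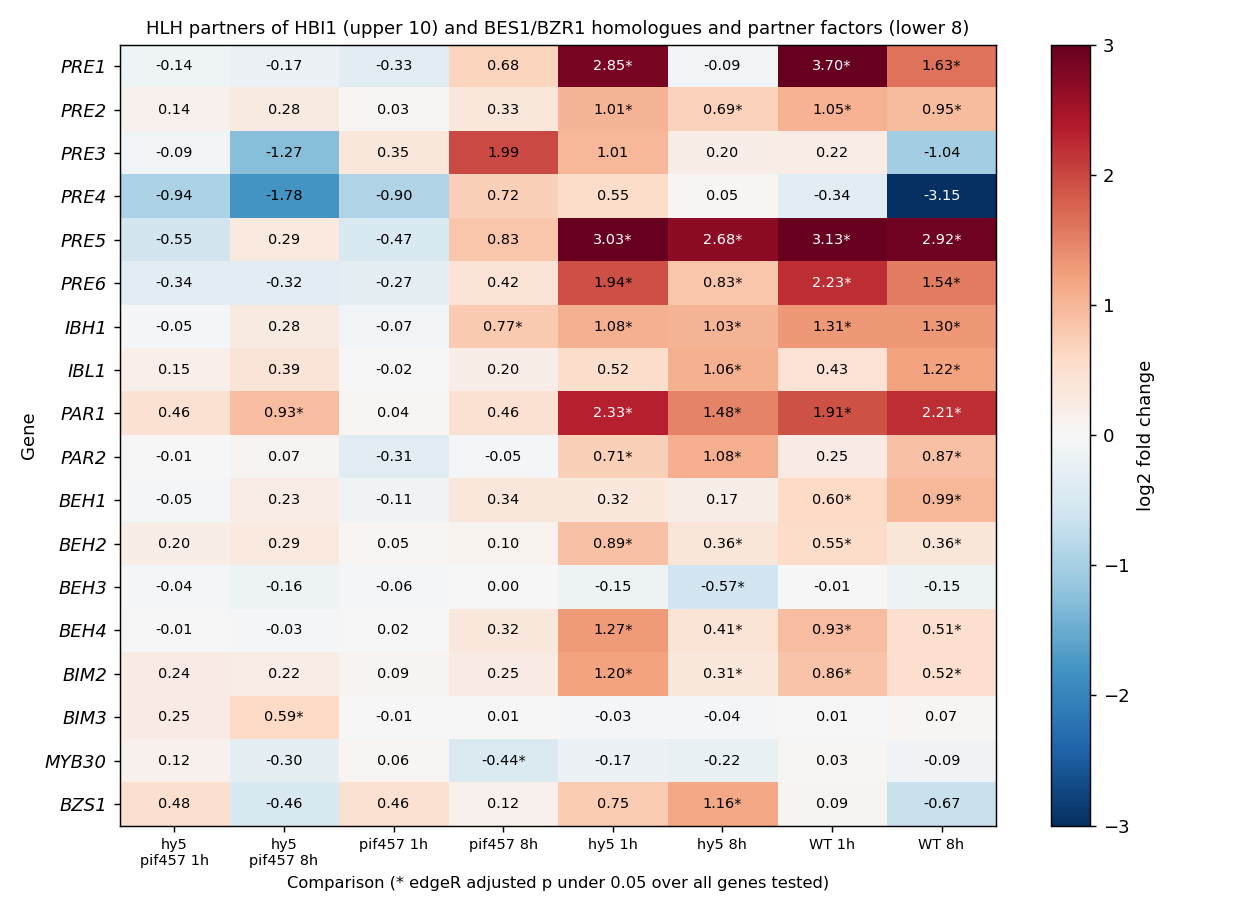
Log2 fold change of shade against 0 h for 10 small HLH factors (upper) and 8 homologues or partners of BES1 and BZR1 (lower) in each genotype, with an asterisk at an edgeR adjusted p under 0.05; colours stop at 3 and -3. PRE1, PRE6 and PAR1 carry asterisks at 1 h in hy5 and WT and none at 1 h in hy5 pif457 or pif457.

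Over the 12 group means of log2 CPM, members fell into those that moved with BRI1 and those that did not. Pearson's r with BRI1 was 0.90 for BEE1, 0.89 for BEE2, 0.85 for BIM1, 0.83 for BZR1 and 0.80 for HBI1, and 0.29 for BEE3, -0.23 for BKI1 and -0.62 for BES1. BES1 and BIM1 had an r of -0.70. These values describe 12 groups that share genotypes and times and carry no test. Of 15368 genes compared, each averaging 2 or more on the log2 CPM scale, those most like BRI1 were SAUR21 (r = 0.984) and SAUR20 (r = 0.972), members of a family of small auxin-induced proteins. BEE1 was most like IAA29 (0.984), an auxin-response repressor gene, and AT5G02760 (0.982). BEE3 was most like ARL (0.977) and CIB1 (0.971), HBI1 like TCP14 (0.961) and ATEXPA1 (0.933), BIM1 like AT3G58640 (0.974) and AT3G58630 (0.971), BEE2 like AT1G29460 (0.959) and AT2G47440 (0.956), and BZR1 like ANL2 (0.969) and ZHD7 (0.965). For BKI1 and BES1 the highest values were 0.896 (AT2G17695) and 0.874 (AT4G21890).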

How the data were processed

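Gene-level expected counts of 36 stranded mRNA libraries were deposited by the authors as 1 table; the submitters' processing notes name STAR 2.5.3a, RSEM 1.3.0 and TAIR10. They were rounded to whole numbers. Genes were kept by edgeR's filterByExpr (minimum count 10, minimum total 15) and scaled by TMM. All 36 libraries entered 1 edgeR 4.0.16 quasi-likelihood fit in R 4.3.3 with a term for each of the 12 groups, and p-values were Benjamini-Hochberg adjusted over 21562 genes in each of 33 comparisons, with a threshold of 0.05. SE is the log2 fold change divided by the square root of F. CPM are TMM-scaled, and mean ± SD is over 3 libraries. The scripts were tested on simulated data. Alternatives were DESeq2 1.42.0, RLE size factors, other filters, only the groups compared, a replicate block, each library left out, the removal of 12 libraries rich in ribosomal RNA or of 289 ribosomal and organelle genes, and the root marker score (mean log2 CPM of 23 genes) as a covariate. All 10 members are named, with pathway genes that had the lowest adjusted p in their list. The members and lists were chosen with earlier results of these data known. Gene models, names and upstream sequence came from RefSeq's TAIR10.1, while the table has no coordinates; the strand setting of the counting is not given in the sources used here.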

Additional observations from a re-analysis of the deposited data

Results flagged for a closer look

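The shade response (log2 fold change against 0 h) of a mutant differed from that of WT in 13 tests of the difference itself, all lower in the mutant (edgeR adjusted p under 0.05). At 1 h the differences in hy5 pif457 were -1.107 for BRI1, -1.554 for BIM1 and -2.157 for BEE1. At 1 h in pif457 they were -1.065 for BRI1, -1.677 for BIM1 and -2.343 for BEE1. At 8 h in hy5 pif457 they were -1.048 for BRI1, -1.58 for BEE1 and -0.848 for HBI1. At 8 h in pif457 they were -0.843 for BRI1 and -1.209 for HBI1. At 8 h in hy5 they were -0.588 for BRI1 and -1.144 for BEE3. All of them share the WT libraries, and each also holds the difference between genotypes at 0 h. BRI1 in hy5 and WT averaged 185 and 124 CPM at 0 h, and 259 and 261 CPM at 8 h.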

How the results depend on the processing

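No member test changed sign among called values under any alternative. The count of called response differences, 13 of 54, fell to 8 without WT 0 h replicate 3, WT 1 h replicate 1 or 3, or WT 8 h replicate 2 or 3; the cause was not tested. With each library left out in turn, the called member tests numbered 8 to 18 for response differences, 22 to 27 for shade against 0 h, 6 to 9 for 8 h against 1 h, 19 to 27 for mutants against WT and 6 to 12 for hy5 pif457 against the single mutants. Of the 81 calls, 39 were kept in every setting and 48 with each library left out. Replicate numbers gave no sign of pairing over all groups: same-numbered libraries had a mean correlation of deviations of -0.012, and 59 of 198 pairs were over 0.1. Single pairs ran from -0.674 to 0.726, and pairing within 1 genotype, which such a mean can hide, was not tested. With the replicate as a block, the called member tests were 26 for shade, 8 for 8 h against 1 h, 24 for mutants against WT, 13 for response differences and 10 for hy5 pif457 against the single mutants. HBI1 in hy5 pif457 against WT at 0 h (adjusted p = 0.0535, edgeR) and the BRI1 response difference in hy5 at 8 h (adjusted p = 0.0598, edgeR) were lost. DESeq2 gave 26, 8, 26, 16 and 9 in the same order, and the fit of only the groups compared 22, 7, 17, 17 and 8. Single calls were lost at 87.8% to 103% of their log2 value without a filter on low counts (9 calls). With RLE size factors 2 were lost, 2 with the CPM filter, 5 without ribosomal and organelle genes and 2 without the 12 libraries rich in ribosomal RNA. The BRI1 response difference in hy5 at 8 h was lost in all 5 of these settings, and HBI1 in hy5 pif457 against WT at 0 h in all but the last, which leaves no hy5 pif457 library. CES was not tested.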
